A study of Mus musculus with 18 samples.

Results

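The PYHIN genes, also called the Ifi200 family, encode interferon-induced proteins that carry a pyrin domain, a DNA-binding HIN domain, or both. They were followed here in mouse bone marrow and spleen through 9 members, Aim2, Ifi203, Ifi204, Ifi205, Ifi207, Ifi209, Ifi211, Ifi213 and Mndal, which were taken by symbol from the authors' deposited DESeq2 table of each tissue. All 9 were listed in both tables, among 14423 genes (bone marrow) and 21830 genes (spleen). The RNA came from dissociated cells of C57BL/6 mice and was read by QuantSeq, a method that sequences each transcript near its poly(A) tail, so a count does not grow with transcript length. Bone marrow was taken from untransplanted Cgas-/- mice (4 libraries) and from Trex1-/-;Sting1gt/gt mice, called dKO (4 libraries). Spleen was taken from dKO mice that had been lethally irradiated and had carried transplanted marrow for 12 weeks, either Cgas-/- marrow (5 libraries) or dKO marrow (5 libraries). Cgas-/- cells lack cGAS, the enzyme that makes cGAMP on DNA, and dKO cells lack the DNase TREX1 and, through the goldenticket allele of Sting1, a working cGAMP receptor. Every spleen had a dKO host, so host cells that survived irradiation were dKO in both groups, and no group in either tissue was wild type. Neither ages nor sexes were given in the labels used. Fold changes are Cgas-/- over dKO throughout, and in spleen this refers to the transplanted marrow.

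The HIN domain, in the PYHIN proteins that have one, binds double-stranded DNA largely without regard to sequence. AIM2 is the best understood of them: on cytosolic DNA its pyrin domain assembles the adaptor ASC (gene Pycard) and caspase-1 into an inflammasome that matures interleukin-1β and interleukin-18 and opens gasdermin D pores. The other mouse genes lie in 1 cluster that differs between species and between mouse strains, they are found mostly in the nucleus, and many are induced by type I interferon through the interferon-stimulated response element (ISRE), to which the factor ISGF3 binds.

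On GRCm38, the assembly of mm10, the family filled 0.681 Mb of chromosome 1, from 173350879 to 174031810, and held 14 annotated genes, a pseudogene (Ifi203-ps) included. From the proximal end the members were Aim2 (ENSMUSG00000037860.15, plus strand, 173350879 to 173466040), Ifi213 (minus, 173566283 to 173599274), Ifi209 (plus, 173630917 to 173647928), Ifi207 (minus, 173723427 to 173741747), Ifi204 (minus, 173747293 to 173766943), Mndal (minus, 173849126 to 173942491), Ifi211 (minus, 173896345 to 173913046), Ifi203 (minus, 173920407 to 173942672) and Ifi205 (minus, 174011998 to 174031810). The 4 protein-coding genes of the cluster outside the member list were Ifi206, Ifi214, Ifi208 and Ifi202b.

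The promoters of most of the family's genes with a window carry related stretches around an ISRE core, shown because interferon acts on many genes through this element. RefSeq promoter windows (GRCm38.p6, 250 bases before to 50 after the start site) were found for 8 of the 9 members, with no entry for Ifi204. The core was searched as GAAANNGAAA on both strands. It was present in 6 of these 8 members, in 9 of 12 genes of the whole family, and in 3.99% of all 27025 genes with such a window. The 3 family genes without it were Aim2, Ifi209 and Ifi202b. The stretches resemble each other, so the family's genes are not independent entries in these counts. Each line gives 40 bases on the gene's strand, 5′ to 3′, with the match in capitals.
Ifi213: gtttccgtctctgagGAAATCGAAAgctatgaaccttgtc
Ifi207: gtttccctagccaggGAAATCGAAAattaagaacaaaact
Mndal: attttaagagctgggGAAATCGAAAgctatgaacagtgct
Ifi203: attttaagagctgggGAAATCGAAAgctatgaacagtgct
Ifi211: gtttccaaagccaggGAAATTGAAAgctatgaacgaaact
Ifi205: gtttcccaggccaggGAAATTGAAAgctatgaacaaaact
Ifi209, nearest stretch: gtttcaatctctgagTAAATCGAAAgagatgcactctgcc
In this order the first 6 lie at chr1:173599321-173599360, chr1:173741826-173741865, chr1:173880199-173880238, chr1:173942503-173942542, chr1:173913059-173913098 and chr1:174031865-174031904, all on the minus strand, and the Ifi209 stretch at chr1:173630765-173630804 on the plus strand. The match began 73 bases before the start site in Ifi213, 41 in Ifi207, 36 in Mndal, 35 in Ifi203, 37 in Ifi211 and 134 in Ifi205. Mndal and Ifi203 had the same 40 bases. The Ifi209 window held no core, and its nearest stretch differed from GAAATCGAAA by the single substitution G1T, counted from the first G of those letters. Ifi205 and the other annotated start of Mndal each had a further match on the opposite strand. The other annotated start of Ifi203 had none. Aim2 had no match in its window, and its start lies inside the longer gene span of the annotation. The interferon-gamma activated element GAS, searched as TTCNNNGAA, which reads the same on both strands, was found in none of the 8 members, in Ifi202b, and in 9.55% of all genes. A match of letters is a description and does not show binding, and the absence of one holds only for this window.

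The tables used here give 1 mean per gene over all libraries of a tissue and no value per library, so the spread of a level could not be given and neighbours in the order of levels could not be tested. Mean normalized counts of the members ran, in bone marrow and per the authors' deposited table, from 56.4 (Ifi205) to 1998 (Mndal). The order from the top was Mndal, Ifi203 (1744), Ifi209 (783), Ifi211 (563), Ifi204 (452), Aim2 (259), Ifi207 (243), Ifi213 (98.6) and Ifi205, by the authors' deposited table. In spleen, per the authors' deposited table, Ifi203 led with 2258, followed by Mndal (1675), Ifi209 (787), Ifi213 (491), Aim2 (254), Ifi204 (85.9), Ifi207 (64.7), Ifi211 (28.8) and Ifi205 (22.7). All 9 members had a mean of at least 20 in both tissues. The tables were normalized separately, so the make-up of the family is given as each member's share of the 9 summed means within a tissue. Mndal and Ifi203 were the most abundant in both, Mndal with 32.2% in bone marrow and 29.6% in spleen and Ifi203 with 28.2% and 39.8%. Ifi213 held 1.59% of the sum in bone marrow and 8.67% in spleen. Ifi211 went the other way, with 9.09% in bone marrow and 0.508% in spleen. Ifi204, the gene of p204, which is often compared with human IFI16, held 7.29% and 1.52%. The share of Aim2 was nearly the same in the tissues, 4.18% and 4.48%. These shares have no replicate error and the tissues come from different mice, so they describe the pools of libraries. The tables also differ in the number of genes and in some symbols they list. Ifi211 shares much of its 3′ end with Ifi205, as given below. The part of annotation and read assignment in the shares was not tested.

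**Figure D1:**
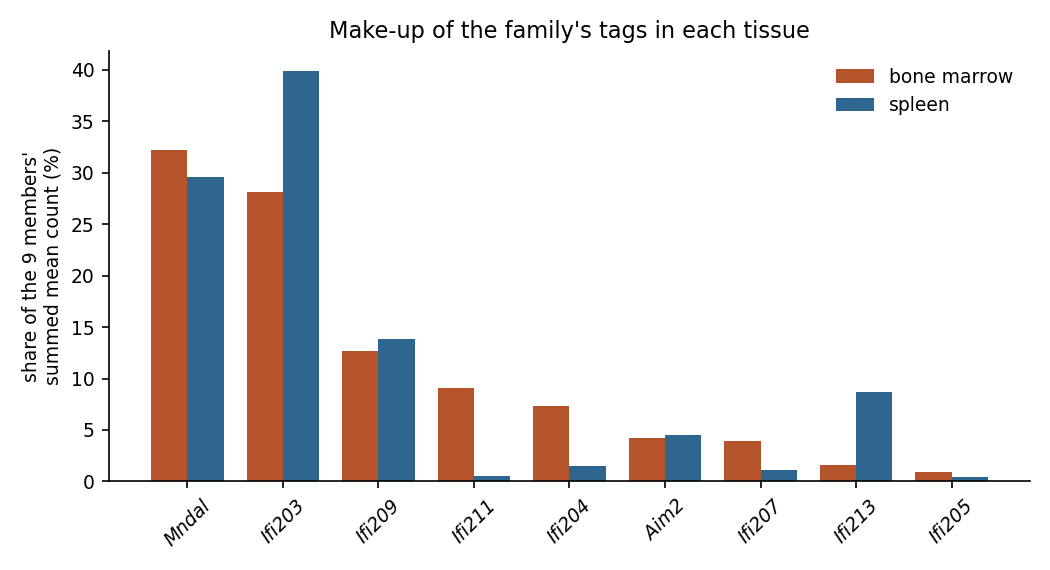
Share of the summed mean normalized counts of the 9 members (y axis, percent) taken by each member (x axis) in bone marrow and in spleen, from 1 mean per tissue and so without error bars. Ifi211 and Ifi204 take larger shares in bone marrow (9.09% and 7.29%), and Ifi213 takes a larger share in spleen (8.67%).

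The labels were checked on the targeted genes. Cgas had, per the authors' deposited tables, a log2 fold change of -1.13 ± 0.155 in bone marrow (standard error, as in all values given with ± here) and -0.92 ± 0.217 in spleen, where it is listed as Mb21d1, and Trex1 had 1.45 ± 0.178 and 2.71 ± 0.199. All 4 differences passed at an adjusted p of 0.05 by DESeq2. Neutrophil markers summed to over 1.03e+06 normalized counts in each bone marrow group. In spleen, B cell markers (25070 and 25251) and T cell markers (8329 and 7636) were plentiful in the recipients of Cgas-/- and dKO marrow, in sums computed from each mean and fold. A lower count in such bulk samples can come from fewer cells of a type or from less RNA per cell, and these cannot be told apart.

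The first comparison sets the marrow of one genotype against that of the other, without transplantation. In it all 9 members were estimated lower in Cgas-/- than in dKO cells, with a median log2 fold change of -0.29, but none passed the test. The background was 50.5% of all 14423 genes below 0 and a median of -0.00 over them. By DESeq2, per the authors' deposited table, 0 of 9 members had an adjusted p under 0.05, where 0.534% of all genes did (0.361% lower and 0.173% higher). At an unadjusted p under 0.05 there were 2 of 9 members lower and none higher, against 4.65% of all genes lower and 4.19% higher. Per the authors' deposited table, the smallest adjusted p of a member by DESeq2 was 0.340, so no difference passed once adjusted over all genes. The labels do not say that each library is a separate mouse, and the p-values cover no more than differences among the libraries sequenced.

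Ifi213, which RefSeq also lists as Pydc4, had the lowest estimate. Its mean and fold imply 75.0 normalized counts in Cgas-/- and 122 in dKO marrow, a level 1.63-fold lower in Cgas-/-. Per the authors' deposited table its log2 fold change was -0.70 ± 0.282 (unadjusted p = 0.0124, DESeq2 adjusted p = 0.340), and the 95% interval ran from -1.26 to -0.15. Ifi204 followed at -0.38 ± 0.163 per the authors' deposited table (unadjusted p = 0.0213, DESeq2 adjusted p = 0.419), with implied levels of 393 and 510. These are the 2 members with intervals that lie wholly below 0 before adjustment.

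The remaining members had intervals that include 0. Ifi207 (-0.34 ± 0.213), Ifi205 (-0.33 ± 0.292) and Ifi211 (-0.29 ± 0.151) were next per the authors' deposited table. For Ifi211 the implied levels were 508 in Cgas-/- and 619 in dKO marrow, and its interval reached 0.01. Both of the most abundant members were nearer to 0: Ifi203 had -0.14 ± 0.107 and Mndal, the myeloid nuclear differentiation antigen-like gene, had -0.14 ± 0.108 per the authors' deposited table. Ifi209 (-0.10 ± 0.109) and the inflammasome sensor Aim2 (-0.10 ± 0.144) were closest to 0 per the authors' deposited table. For Aim2 the implied levels were 250.4 and 268, and its 95% interval, -0.38 to 0.19, holds no difference larger than 1.30-fold. Without Ifi205, Ifi209, Ifi211 and Ifi213, whose 3′ ends share sequence with another gene, the median was -0.14, an alternative chosen after the data were seen. Mndal was kept, although 1 of its 4 transcripts also shares sequence there, and leaving it out as well was not run.

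**Figure D2:**
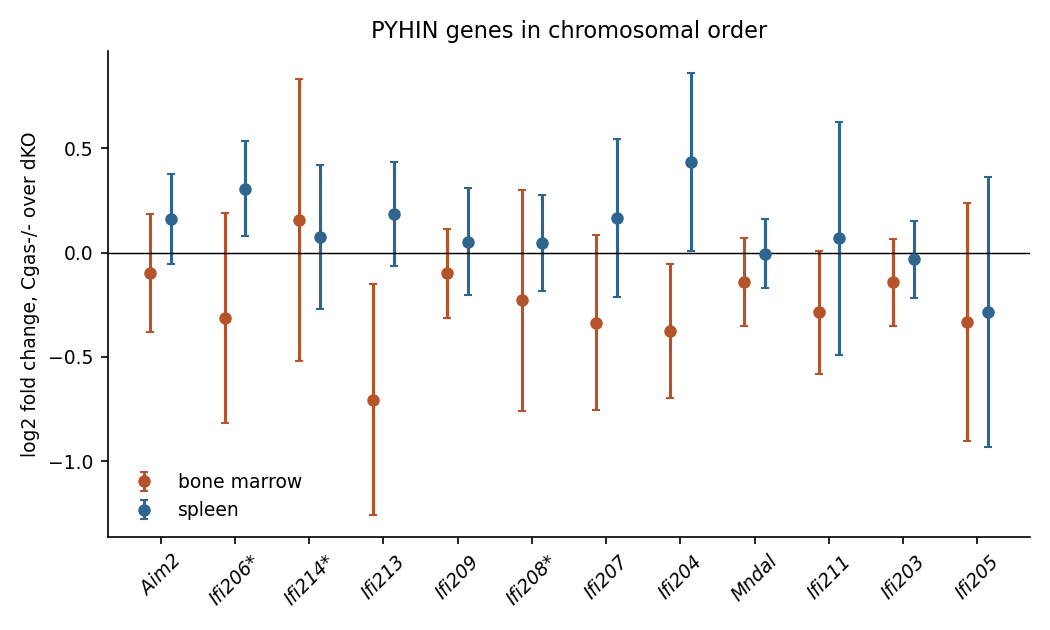
Log2 fold change of Cgas-/- over dKO (y axis) for 12 PYHIN genes in chromosomal order (x axis; an asterisk marks genes outside the member list) in bone marrow and spleen. Points are the authors' estimates and bars 95% intervals. All 9 members lie below 0 in bone marrow, and Ifi213 (-0.70) is lowest.

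In spleen, where all recipients were dKO and the donor marrow differed, the members lay on both sides of 0. The estimates were above 0 for 6 of 9 and below 0 for 3, with a median of 0.07, beside 44.96% above 0 and a median of -0.03 over all 21830 genes. Over the 11118 genes with a mean of at least 20, which every member had, 52.0% were above 0 and the median was 0.006. By DESeq2, per the authors' deposited table, 0 of 9 members had an adjusted p under 0.05, and 0.133% of all genes did (0.0779% lower and 0.055% higher). At an unadjusted p under 0.05, 1 of 9 was higher and none lower, beside 1.17% of all genes higher and 1.85% lower. Of the 11118 genes with a mean of at least 20, 225 were higher and 176 lower at that p. Without the same 4 members the median was 0.16.

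Ifi204 had the highest estimate in spleen. The implied levels were 98.7 normalized counts with Cgas-/- marrow and 73.0 with dKO marrow. Per the authors' deposited table its log2 fold change was 0.44 ± 0.218 (unadjusted p = 0.0456, DESeq2 adjusted p = 0.999997), and its interval ran from 0.01 to 0.86. Ifi213 had 0.19 ± 0.128, Ifi207 0.17 ± 0.194 and Aim2 0.16 ± 0.110 per the authors' deposited table. Ifi211 (0.07 ± 0.285) and Ifi209 (0.05 ± 0.131) were nearer to 0 per the authors' deposited table. Mndal (-0.00 ± 0.0847) and Ifi203 (-0.03 ± 0.0939) were the most precise, and Ifi205 (-0.28 ± 0.332) the least, per the authors' deposited table. The Mndal interval, -0.17 to 0.16, holds no difference larger than 1.13-fold in either direction, and that of Ifi203 none larger than 1.16-fold.

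The difference between the tissues was tested directly for 13851 genes listed in both tables: the log2 fold change in bone marrow was subtracted from that in spleen and divided by the standard error of this difference. The difference was above 0 for all 9 members, with a median of 0.26, beside 47.6% of all genes and a median of -0.01. None of the 9 passed an adjusted p of 0.05, which 0.0578% of all genes did. Unadjusted, 2 of 9 were under 0.05, both higher in spleen, as were 2.23% of all genes. The larger of these differences was that of Ifi213, 0.89 ± 0.310 (unadjusted p = 0.00404, adjusted p = 0.644), with an interval from 0.28 to 1.497. The other was Ifi204, at 0.81 ± 0.272 (unadjusted p = 0.00288, adjusted p = 0.573), with 0.28 to 1.34. Ifi207 had 0.50 ± 0.289, Ifi211 0.35 ± 0.323, Aim2 0.26 ± 0.182 and Ifi209 0.15 ± 0.170. For Mndal (0.14 ± 0.138), Ifi203 (0.11 ± 0.142) and Ifi205 (0.05 ± 0.442) the difference was within about 1 standard error of 0. A lower estimate in bone marrow together with a higher one in spleen was seen for 6 of 9 members and for 23.9% of all genes in both tables. It was also seen for 43 of 60 other interferon-stimulated genes (71.7%).

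**Figure D3:**
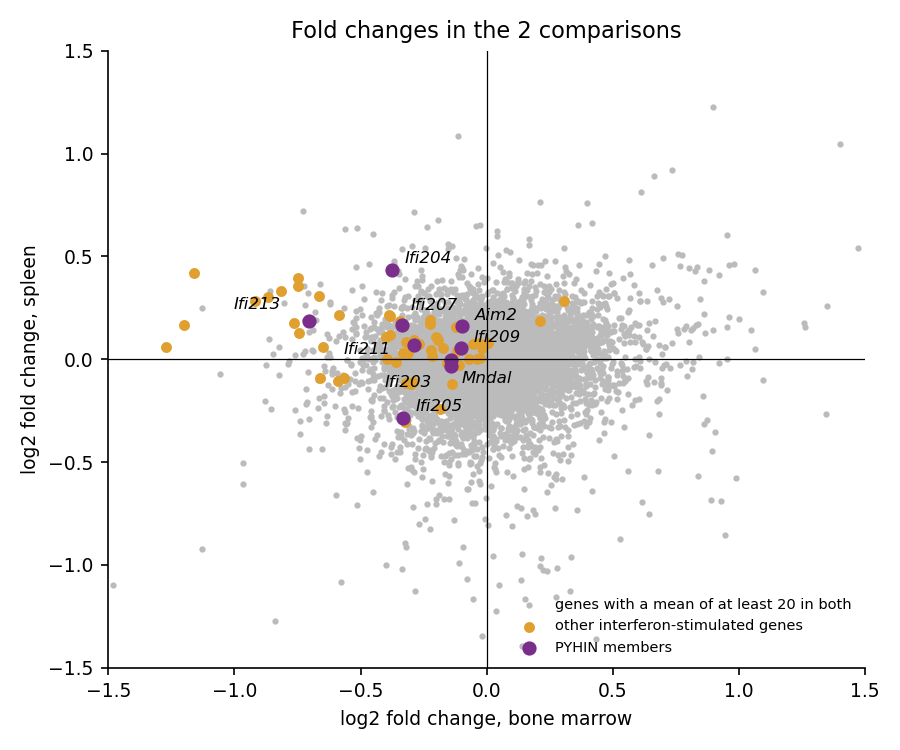
Log2 fold change in bone marrow (x axis) against spleen (y axis) for each gene whose mean normalized count reached 20 in both tables (grey), other interferon-stimulated genes (orange) and the 9 PYHIN members (purple). The axes stop at 1.5, which leaves 11 of 10062 genes outside. Ifi213 and Ifi204 lie farthest from the origin among the members, and all 9 lie left of 0.

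Precision differed widely between members and set what could be called. The weakest call, per the authors' deposited tables, had a Wald score of 3.65 in bone marrow and 4.10 in spleen. With the members' own standard errors, a call would have needed a difference of 1.31-fold (Ifi203) to 2.09-fold (Ifi205) in bone marrow and of 1.27-fold (Mndal) to 2.56-fold (Ifi205) in spleen. All 9 estimates were below the size needed, in both tissues, which restates that none was called. These sizes are cuts on the observed estimate and not limits on the true differences that could be detected. Ifi213 would have needed 2.04-fold in bone marrow and showed 1.63-fold, and Ifi204 would have needed 1.51-fold and showed 1.30-fold. Standard errors were also compared with those of other genes at like levels. Set against the median of the 200 genes nearest in mean, the ratio was above 1 for 9 of 9 members in each tissue, from 1.02 to 1.49 in bone marrow and from 1.03 to 1.53 in spleen. It was highest for Ifi207 (1.49) and Ifi211 (1.44) in bone marrow and for Ifi209 (1.53) in spleen. Several members were near 1, among them Aim2 (1.02) and Ifi205 (1.06) in bone marrow. In spleen Ifi207, Aim2 and Mndal were each at 1.03. The share of all genes with a ratio above 1 was not computed, so the count of members is not set against a background.

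**Figure D4:**
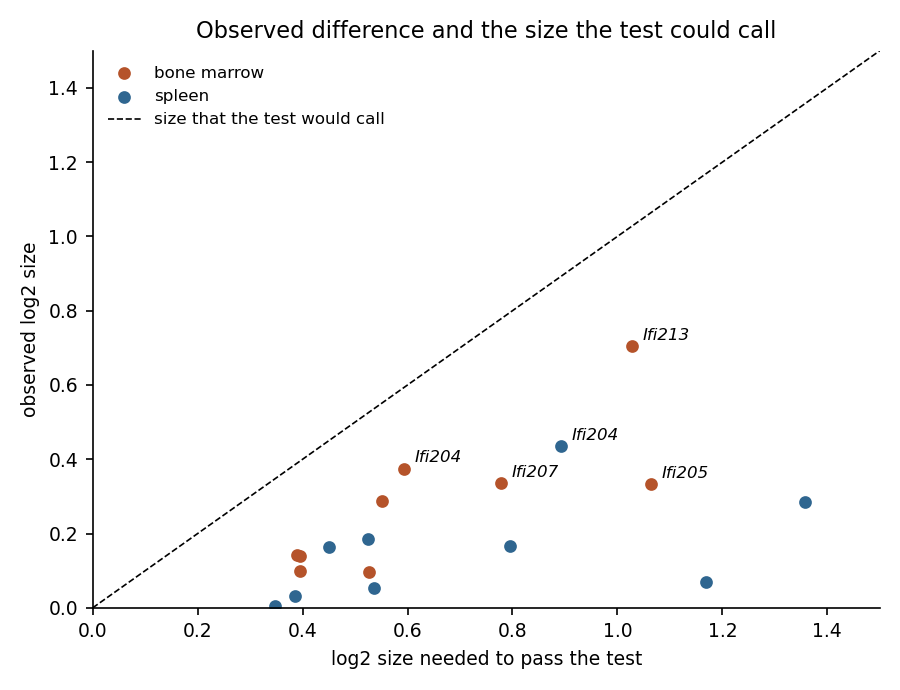
Observed absolute log2 fold change of each member (y axis) against the absolute log2 fold change that would have reached the weakest call in the same table (x axis), in bone marrow and spleen. The dashed line marks equality. All points lie below it. Ifi204 in bone marrow (1.30-fold against 1.51-fold) is plotted nearest to the line, while Ifi213 in bone marrow has the smallest unadjusted p.

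Some single values are uncertain because the genes are alike where QuantSeq reads them. In the last 300 bases of each annotated coding transcript (GENCODE M21), windows of 50 bases were looked up in the transcripts of every other gene. Ifi205 shared 82.5% of these windows with Ifi211, and Ifi211 shared 79.3% with Ifi205. Ifi209 shared 49.4% with Ifi214, which is outside the member list. Up to 22.7% of the windows of an Ifi213 transcript were shared with Ifi208. No window of Aim2, Ifi203, Ifi204 or Ifi207 was found in another gene, and 1 of 4 Mndal transcripts shared 11.2% with Ifi203 or its pseudogene. How the authors assigned reads that fit more than 1 gene is not given in the sources used here. Means of Ifi211 and Ifi205 stood in a ratio of 9.998 in bone marrow and of 1.27 in spleen, from the authors' deposited tables. The annotated span of Mndal also contains Ifi211 and overlaps Ifi203 on the same strand, but the exons of Mndal and Ifi203 shared 37 bases and those of Mndal and Ifi211 none. Aim2 overlaps Cadm3, a cell adhesion gene, on the opposite strand, and the counting strand is not given. Cadm3 had means of 9.40 and 19.0 per the authors' deposited tables, beside 259 and 254 for Aim2.

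The remaining genes of the cluster did not pass either. In bone marrow, per the authors' deposited table, Ifi206 had -0.31 ± 0.257, Ifi208 -0.23 ± 0.271 and Ifi214 0.16 ± 0.344. In spleen, Ifi206 had the smallest unadjusted p of any PYHIN gene, at 0.31 ± 0.117 (unadjusted p = 0.00835, DESeq2 adjusted p = 0.999997) per the authors' deposited table, with implied levels of 362 with Cgas-/- and 293 with dKO marrow. Ifi208 (0.05 ± 0.117) and Ifi214 (0.07 ± 0.176) were near 0 per the authors' deposited table. Ifi202b, whose product has HIN domains and no pyrin domain, was listed for spleen only, with a mean of 0.585, and the pseudogene Ifi203-ps had means of 7.27 and 1.93 per the authors' deposited tables. Within 1 Mb on either side of the family, 14 other genes were listed for bone marrow and 25 for spleen, of 67 annotated, and none passed by DESeq2, per the authors' deposited tables. Their medians were -0.20 and -0.22. Among those with a mean of at least 20, 7 of 8 were below 0 in bone marrow, with a median of -0.28, and 6 of 9 above 0 in spleen, with a median of 0.09, which are values close to the members' own medians. At the proximal end Cadm3, which overlaps Aim2, had 0.03 ± 0.582 in bone marrow and -0.42 ± 0.389 in spleen per the authors' deposited tables. The nearest listed gene wholly before the family was Ackr1. It had -0.85 ± 0.487 in bone marrow (mean 16.5) and -0.40 ± 0.510 in spleen (mean 7.70) per the authors' deposited tables. The nearest after the family in spleen was the olfactory receptor gene Olfr433 (0.29 ± 0.733, mean 4.05 per the authors' deposited table).

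The members were then set beside lists of related genes, by counts and medians. Other interferon-stimulated genes had 57 of 60 below 0 in bone marrow, with a median of -0.32, close to that of the members. Of these, 8 fell by DESeq2 at an adjusted p of 0.05, per the authors' deposited table, and none rose, where 0 of 9 PYHIN members did, a difference in counts that was not tested. The oligoadenylate synthetase gene Oas2 was at -1.20 ± 0.253 (DESeq2 adjusted p = 0.00142) and the interferon-induced chaperone gene Rtp4 at -0.92 ± 0.195 per the authors' deposited table. In spleen 46 of 60 were above 0, with a median of 0.08, and none passed by DESeq2, per the authors' deposited table, where 3 were higher and 1 lower at an unadjusted p under 0.05. Zbp1, a sensor of Z-form nucleic acids, was the member of that list with the smallest p among the higher ones in spleen (0.39 ± 0.151), and it had -0.75 ± 0.232 in bone marrow, and neither passed by DESeq2 per the authors' deposited tables. The lower one was Parp14, an ADP-ribosyltransferase gene (-0.24 ± 0.106 per the authors' deposited table).

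Genes of inflammasomes and pyroptosis, those that act with AIM2 among them, had no calls. Of 22 measured inflammasome and pyroptosis genes, 20 were below 0 in bone marrow, with a median of -0.12, and 16 of 22 above 0 in spleen, with a median of 0.06. By DESeq2 none passed, per the authors' deposited tables, where 2 were lower and 1 higher in bone marrow, and 2 higher in spleen, at an unadjusted p under 0.05. Zbp1, which is also in this list, and Hmgb1 (0.20 ± 0.0639), a nuclear protein released by dying cells, had the smallest p in bone marrow per the authors' deposited table. Casp4, the caspase that senses intracellular lipopolysaccharide, had 0.38 ± 0.153 in spleen per the authors' deposited table, where it and Zbp1 had the smallest p. The interferon receptors, kinases and transcription factors had medians of -0.07 and 0.06 over 18 genes, with no call by DESeq2 per the authors' deposited tables. Irf7, an interferon-induced factor, had -0.66 ± 0.192 in bone marrow (DESeq2 adjusted p = 0.0790) and Irf8, a factor of monocyte and dendritic cell development, 0.23 ± 0.0741 per the authors' deposited table. In spleen Jak2 (0.16 ± 0.0712), a kinase of cytokine signalling, had the smallest p of this list per the authors' deposited table. Among other nucleic acid sensors the medians were -0.03 and 0.03. Cgas, the deleted gene, and Oasl1 (-1.27 ± 0.276) fell in bone marrow and Cgas fell in spleen, where Zbp1 had the next smallest p, and these were the only calls of that list by DESeq2 per the authors' deposited tables.

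**Figure D5:**
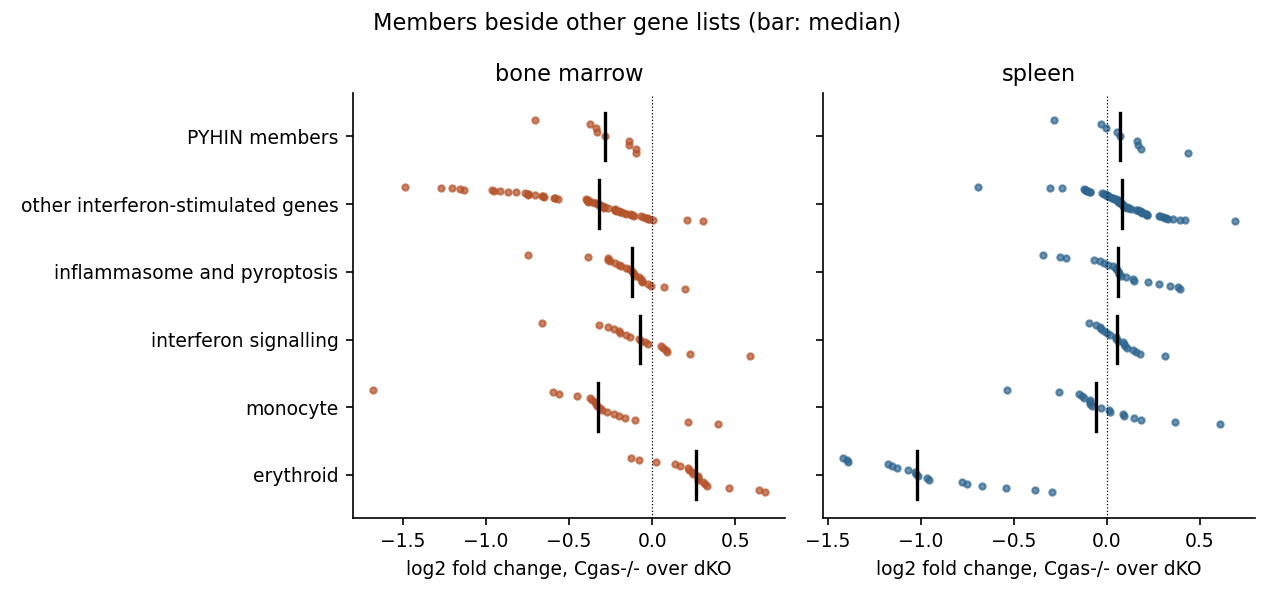
Log2 fold change of Cgas-/- over dKO (x axis) of each gene in 6 lists (rows) in bone marrow and spleen. Points are genes, spread vertically for legibility, and black bars are medians. In bone marrow the medians of the PYHIN members (-0.29), other interferon-stimulated genes (-0.32) and monocyte markers (-0.32) are close to each other.

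PYHIN genes are expressed most in blood and immune cells, and the marker lists of several such cell types had medians away from 0 in the same libraries. Monocyte markers had 16 of 18 below 0 in bone marrow, a median of -0.32 and 5 genes that fell by DESeq2 per the authors' deposited table, among them Lyz2, the lysozyme gene of myeloid cells (-0.56 ± 0.0892). Their summed level, computed from each mean and fold, was 76096 in Cgas-/- and 105979 in dKO marrow, and none of the 18 was at 0. Lyz2 made up 71.8% of the summed means, and without it the sums were 23322 and 28097. In spleen the same markers had a median of -0.06 and sums of 10089 and 10380 (4909 and 4902 without Lyz2), with no call by DESeq2 per the authors' deposited table. Neutrophil markers had a median of -0.10 in bone marrow, with 14 of 15 below 0, and of -0.47 in spleen, with 13 of 15 below 0 and sums of 26137 and 31344. Erythroid markers had medians of 0.26 in bone marrow, with sums of 6765 and 5770 in Cgas-/- and dKO, and of -1.02 in spleen, with 1367 and 2388. Medians in bone marrow and spleen were 0.28 and -0.05 for haematopoietic progenitor markers, 0.23 and -0.11 for dendritic cell markers, 0.07 and 0.02 for B cell markers, and 0.02 and 0.12 for T cell markers. NK cell markers had 0.13 and -0.18, red pulp macrophage markers 0.06 and -0.16, and plasma cell markers -0.27 and -0.24. Outside the monocyte list, 2 markers passed by DESeq2 per the authors' deposited tables, both higher in Cgas-/- marrow: Flt3 (0.72 ± 0.153), a receptor of progenitors and dendritic cells, and Dntt (0.64 ± 0.166), the terminal transferase of early lymphocytes. Markers with the smallest p of other lists in bone marrow did not pass: Ly6g (-0.29 ± 0.105) for neutrophils, Trbc2 (-0.57 ± 0.261) for T cells, Gzmb (0.99 ± 0.740) for NK cells, Adgre1 (-0.46 ± 0.171) for macrophages, Sox4 (0.30 ± 0.112) for progenitors and Xbp1 (-0.27 ± 0.0986) for plasma cells, per the authors' deposited table. The part of these markers in the PYHIN values was not tested.

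Genes with a pattern like that of the family were ranked by their distance from the members' median pair of log2 fold changes, -0.29 in bone marrow and 0.07 in spleen. The 5 nearest of 10053 genes with a mean of at least 20 in both tables were Slc37a1, Cmpk2, Klc1, Arhgef3 and Tlr6, and none of them passed by DESeq2 per the authors' deposited tables. This likeness rests on only 2 comparisons. The median distance of the members themselves from that pair was 0.19, and 16.7% of the genes compared lay at least as near.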

How the data were processed

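QuantSeq forward libraries were made from RNA of suspended cells isolated with the SPLIT kit, per the labels' protocols. Of the upstream steps, bcl2fastq 1.8.4, STAR 2.6.1, Partek, DESeq2 and build mm10 are listed in the submitters' processing notes, and counting tool, annotation and strand were not given in the sources used here for either tissue. The mean normalized count is a signal that the authors averaged over a comparison's libraries, per the file headers. Log2 fold changes, each with a standard error, are DESeq2 estimates of the authors, per the column names of the deposited tables. The Wald score is their deposited ratio, and the deposited p-value and adjusted p-value follow from it, as a recalculation showed. The depth of single libraries is unknown, which leaves no test on counts.

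From these values were computed 95% intervals, group levels implied by mean and fold with equal group sizes, and the tissue difference with a two-sided normal p and Benjamini-Hochberg adjustment over all genes. On 20 simulated data sets of 13776 genes, that test recovered 74.4% of differences of 1 on the log2 scale, a size no member reached, and 5.67% of its calls were false. The simulated sets held many more true differences than the 8 genes called here, which eases the adjusted threshold. That recovery is therefore not the power for these members. Errors were drawn from the normal form that the test assumes, so the share of false calls checks only the calculation. Symbols were matched to GENCODE M21 directly (14281 and 21678), by synonym (56 and 29) or not at all (86 and 123). The names Mnda, Pyhin1, Pydc3 and Pydc4 matched Ifi211, Ifi209, Ifi208 and Ifi213 and were counted there.

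Members, lists and the naming rule (all members and cluster genes, the nearest genes outside, the 2 smallest p of each pathway list per tissue, the smallest p of each cell type list in bone marrow, the 5 nearest patterns) were chosen with earlier results of these data known. A few genes that this rule names are not reported here. The letters searched exactly were chosen after the promoters were read, as the commonest spelling of the core in those of the members. Alternatives were another filter, reference distribution, centring, threshold and gene set. Python 3.11.15, pandas 2.3.3, numpy 2.4.6, scipy 1.17.1 and matplotlib 3.10.9 were used.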

Additional observations from a re-analysis of the deposited data

How the results depend on the processing

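No member passed an adjusted p of 0.05 under any of 5 alternatives in bone marrow (smallest adjusted p 0.306 to 0.986), 5 in spleen (0.999946 to 0.999997) or 4 for the tissue difference (0.455 to 0.999). These alternatives adjusted over genes with a mean of at least 20, used a t distribution in place of the normal, centred each table on its median, raised the threshold to 0.1 or, within a tissue, left out chromosome 9, which carries Trex1 and Cgas. A t distribution can only raise p, and a threshold of 0.1 lies below the adjusted p of every member. Neither could have added a call, so their result was fixed in advance. Of the alternatives, centring alone could turn the direction of an estimate, and it turned none of the members' in either tissue. The medians subtracted were -0.00287 in bone marrow and 0.00565 in spleen. The members' median in bone marrow was -0.28 after centring and -0.31 without Aim2, and in spleen 0.06 in both cases. Leaving out Ifi205, Ifi209, Ifi211 and Ifi213 but not Mndal, an alternative chosen after the data were seen, gave -0.14 and 0.16. No paired analysis was possible because the deposited columns carry no value per library, and leaving out single libraries was not run for the same reason. The number of libraries and the members' standard errors limit these comparisons. With those standard errors, an observed difference smaller than about 1.27-fold would have been called for no member.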

Other observations

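The exact letters GAAATCGAAA were chosen as a search term because they were the commonest spelling of the core on the gene strand of the member promoters. They occurred on either strand in the RefSeq window of 16 of 27025 genes (0.0592%), and 7 of the 16 were PYHIN genes (Ifi203, Ifi206, Ifi207, Ifi208, Ifi213, Ifi214 and Mndal). That choice of letters by itself raises the PYHIN share. Ifi213 and Ifi208 had the same 40 bases around the match, as did Mndal and Ifi203, so the 7 are not independent entries. Of the 9 others, 6 were listed in bone marrow. Among these, Ddx58, which encodes the RNA sensor RIG-I, had a log2 fold change of -0.36 ± 0.110 in bone marrow (DESeq2 adjusted p = 0.119) and -0.01 ± 0.126 in spleen per the authors' deposited tables. Parp11, an ADP-ribosyltransferase gene, had -0.34 ± 0.238 and -0.01 ± 0.105 per the authors' deposited tables. Pnrc1 (0.03 ± 0.130), the kinase gene Ripk1 (0.01 ± 0.116), Serpinb6a (-0.02 ± 0.135) and Gm26797 (-0.23 ± 0.359) were the others for bone marrow per the authors' deposited table. In bone marrow the estimates of the 13 listed genes with these letters lay on both sides of 0. None of the 13 passed the DESeq2 test, and any part of the letters in these values was not tested.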
